A study of Mus musculus with 20 samples.

Results

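A set of 9 genes that write, oxidise, remove or regulate DNA methylation was followed in mouse dorsal root ganglia (DRG) after sciatic nerve transection. They were Tet1, Tet2, Tet3, Dnmt1, Dnmt3a, Tdg, Gadd45a, Gadd45b and Gadd45g. They were chosen by name: the Ensembl identifiers of the deposited count table, with the version removed, were mapped to mouse symbols, and 9 of 9 genes were found among the 78258 genes of the table. The names were chosen with earlier results of these data known, so the shares of these genes called below are descriptions only. All 9 passed the filter on low counts, which kept 28564 genes. Ganglia of lumbar levels L4 to L6 came from 10 male mice, and each mouse gave 1 library from the side opposite the lesion (contralateral) and 1 from the lesioned side (ipsilateral). The 5 knockout mice (cKO) were Ahr fl/fl with Thy1CRE-ERT2/EYFP, in which the Thy1 promoter, known to be active in neurons, drives a Cre that tamoxifen switches on, together with a fluorescent protein. The 5 control mice were Ahr f/f or f/+. Ahr encodes the aryl hydrocarbon receptor, a ligand-activated transcription factor. Both genotypes received tamoxifen at 100 mg/kg by intraperitoneal injection, once daily for 5 days at 17 weeks of age. The nerve was cut 4 weeks later and the ganglia were taken 1 day after the cut, at zeitgeber time 2 to 4. All libraries therefore came from tamoxifen-treated, lesioned mice, and the reference for the lesion was the other side of the same animals. One label field names a spinal cord injury where the protocol describes transection of the sciatic nerve, and the protocol was followed here. Whole ganglia were sequenced, so each value is a sum over neurons, glia and other cells, while the Thy1 promoter sets where the recombinase is made.

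DNA methylation is copied onto new DNA strands by DNMT1 and set at new sites by DNMT3A. The TET enzymes oxidise methylated cytosine step by step, and thymine DNA glycosylase (TDG) cuts out the most oxidised forms so that base excision repair can put back plain cytosine. The GADD45 proteins are small stress-induced adaptors without enzyme activity, known as partners of PCNA, of the cell cycle inhibitor CDKN1A and of the kinase MAP3K4, and as factors that promote active demethylation at chosen genes. In sensory neurons Gadd45a is a known early gene of nerve injury, and Tet3 has been studied for its part in the regeneration of sensory axons.

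Libraries held 76.2 to 118.5 M counts (M, mega), and the 9 genes had from 373 counts (Tet1) to 19134 counts (Gadd45a) in a library. Over the 36 combinations of gene and group, the spread between mice was 1.06 to 9.66 times that expected from counting alone, and it was nearest to counting error for Tdg (1.06), Tet2 (1.18) and Tet3 (1.34) in control contralateral libraries. Values are CPM (counts scaled to library size, with TMM factors), as mean ± SD over the 5 mice of a group, and p-values come from the quasi-likelihood test of edgeR, adjusted over all 28564 genes. The fit has no term for the mouse, so its p-values and intervals do not use the pairing of the sides. Calls were made where the adjusted p was below 0.05. The lesion was checked by Atf3, a transcription factor of injured neurons, which rose by 5.23 (log2) in control and 5.50 in cKO mice. The targeted gene, Ahr, averaged 24.2 ± 2.10 CPM in control and 20.4 ± 0.536 CPM in cKO contralateral libraries, without overlap but not called (log2 difference -0.25, adjusted p 0.103). On the ipsilateral side it averaged 34.4 ± 2.86 and 31.9 ± 2.94 CPM, with overlap and not called (-0.11), and it rose with the lesion by 0.50 in control and 0.65 in cKO mice. A loss of Ahr is therefore not shown by these whole-gene counts. Of the 15 sensory neuron markers none was at 0 in a library, and their summed level was 11472 to 13660 CPM over the 20 libraries.

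Shown here are 4 genes by the bases just before their start site: the 2 GADD45 genes and the TET gene with the largest rises after the lesion, and Gadd45b, the GADD45 gene without a rise in either genotype. The sequences are the 250 bases before the annotated start in RefSeq (build GRCm38.p6), read 5′ to 3′ on the strand of the gene. For Gadd45g the bases just after this start were not found in a GENCODE M21 transcript of the gene, so its distances hold for the RefSeq start only. Capitals mark, on either strand, an octamer (ATTTGCAT), a CCAAT box or a TATA box. The TATA box was searched as TATAAA. No capitals are shared by matches of different motifs. The window of Gadd45a is chr6:67037408-67037657 (minus strand), that of Gadd45g chr13:51846425-51846674 (plus strand), that of Gadd45b chr10:80929841-80930090 (plus strand) and that of Tet3 chr6:83441679-83441928 (minus strand).
Gadd45a: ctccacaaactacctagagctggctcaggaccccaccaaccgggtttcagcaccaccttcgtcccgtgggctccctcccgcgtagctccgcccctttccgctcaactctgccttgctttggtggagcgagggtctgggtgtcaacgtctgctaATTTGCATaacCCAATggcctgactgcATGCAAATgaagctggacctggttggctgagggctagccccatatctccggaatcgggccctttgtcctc
Gadd45g: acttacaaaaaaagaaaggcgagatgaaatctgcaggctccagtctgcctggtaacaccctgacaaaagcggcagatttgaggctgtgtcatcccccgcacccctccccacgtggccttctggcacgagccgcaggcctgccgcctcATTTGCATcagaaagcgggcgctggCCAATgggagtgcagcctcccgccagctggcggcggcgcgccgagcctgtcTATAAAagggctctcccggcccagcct
Gadd45b: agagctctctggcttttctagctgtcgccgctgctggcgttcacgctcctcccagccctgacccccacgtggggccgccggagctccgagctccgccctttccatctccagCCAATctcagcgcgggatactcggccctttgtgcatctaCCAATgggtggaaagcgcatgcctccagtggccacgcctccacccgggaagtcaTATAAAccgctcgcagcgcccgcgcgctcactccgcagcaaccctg
Tet3: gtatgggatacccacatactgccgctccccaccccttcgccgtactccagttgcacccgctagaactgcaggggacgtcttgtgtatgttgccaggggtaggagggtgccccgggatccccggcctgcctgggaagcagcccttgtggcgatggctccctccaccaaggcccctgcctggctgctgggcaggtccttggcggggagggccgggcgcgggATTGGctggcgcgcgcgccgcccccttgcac

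The octamer, known as a site for POU-domain transcription factors, was present in 2 of the 9 genes, Gadd45a and Gadd45g (2 of 13 windows). It was searched after the sequences had been read, so its presence is a description only. In Gadd45a it began 97 bases before the start on the strand of the gene and 70 bases before it on the other strand, with a CCAAT box between them at 86. In Gadd45g it began at 103, followed by a CCAAT box at 78 and a TATA box at 27. Gadd45b had CCAAT boxes at 139 and 100 and a TATA box at 46, and the octamer letters are not in its window. Tet3 had 1 CCAAT box, on the other strand at 31. Over the 250-base windows of all 32851 RefSeq starts, 1.6% held the octamer, 33.8% the CCAAT box and 12.4% the TATA box. The CCAAT box was found in 6 of the 9 genes (Tet3, Dnmt1, Tdg and the 3 GADD45 genes), and in 7 of their 13 windows, as some genes have more than 1 window. A further 4 motifs were searched on both strands. The AP-1 site TGANTCA was in none of the 13 windows of the 9 genes (6.75% of all windows). The cAMP response element TGACGTCA was in that of Tdg (1.55% of all windows). The core of the xenobiotic response element, GCGTG, the letters at which the aryl hydrocarbon receptor is known to bind, was in windows of Dnmt1, Tdg and Gadd45b (3 of 13 windows, and 28.2% of all windows). The E-box CACGTG was in windows of Dnmt3a, Tdg, Gadd45b and Gadd45g (4 of 13 windows, and 6.02% of all windows).

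After transection of the nerve 5 of the 9 genes rose in both genotypes: Gadd45a, Gadd45g, Tet3, Dnmt1 and Tdg. In control mice no member was called lower, and 29.9% of all tested genes were called (13.8% higher, 16.0% lower). In cKO mice Tet1 and Gadd45b were also called lower, which made 7 of 9, against 31.3% of all tested genes (16.2% higher, 15.1% lower). The call of Tet1 was lost in 4 and that of Gadd45b in 5 of 17 alternative settings. The median log2 fold change of the 9 genes was 0.33 in control and 0.34 in cKO mice, against -0.0047 and -0.030 over all tested genes. For the 5 genes that rose, all 5 ipsilateral libraries lay above all 5 contralateral libraries in each genotype, which held in either direction for 23.6% of all tested genes in control and 20.2% in cKO mice. In whole ganglia, more RNA per cell and more cells of a type that expresses the gene cannot be told apart.

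**Figure D1:**
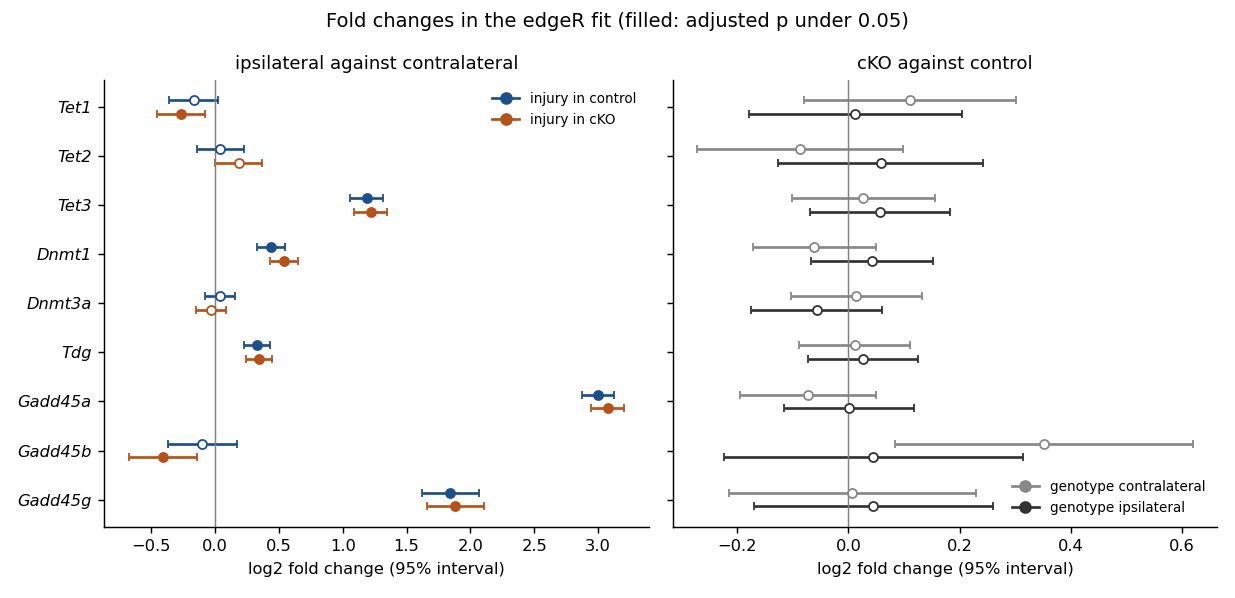
Log2 fold changes of the 9 genes, ipsilateral against contralateral, in control and cKO mice, with 95% confidence intervals. Gadd45a stands highest at 3.0 and 3.08, followed by Gadd45g and Tet3, while Dnmt1 and Tdg lie below 1 and Dnmt3a lies near 0.

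Gadd45a (ENSMUSG00000036390.9), the stress-induced adaptor, had the largest rise. In the contralateral ganglia of control mice H62, H63, H65, H96 and H97 it was at 19.3, 17.8, 18.7, 21.0 and 16.9 CPM, and in their ipsilateral ganglia at 144, 156, 150.3, 154 and 146 CPM. In cKO mice H61, H64, H95, H99 and H100 it was at 19.3, 16.5, 17.8, 17.1 and 18.5 CPM on the contralateral side and at 160.1, 162, 154, 137 and 139 CPM on the ipsilateral side. Every ipsilateral library stood far above every contralateral library, and the 2 genotypes covered much the same range on each side. The log2 fold change was 3.0 (SE 0.0612, adjusted p 2.46e-18) in control mice, a fold of 8.0, and 3.08 (SE 0.0615, adjusted p 1.67e-18) in cKO mice, a fold of 8.43. By p-value it ranked 2 of 28564 genes in each genotype, and by fold change 13 of the 13829 genes that averaged 5 CPM or more. In the GENCODE M21 annotation 337 of its 1764 exon bases are shared with E230016M11Rik, an RNA on the opposite strand. E230016M11Rik rose by 2.83 (log2) in control and 2.89 in cKO mice, and since the strand setting of the counting is not given in the sources used here, reads in the shared bases cannot be told apart.

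Gadd45g (ENSMUSG00000021453.3), a second adaptor of the family, rose less than Gadd45a. In the control mice, in the same order, it was at 13.6, 12.8, 11.3, 14.8 and 9.70 CPM on the contralateral side and at 43.9, 47.5, 45.1, 45.8 and 41.3 CPM on the ipsilateral side. In the cKO mice the values were 11.6, 13.1, 12.6, 10.6 and 14.8 CPM and 52.7, 47.6, 46.9, 38.0 and 45.5 CPM. The sides did not overlap in either genotype, and the 2 lowest ipsilateral values were those of cKO mouse H99 and control mouse H97. The log2 fold change was 1.84 (SE 0.107, adjusted p 1.06e-10) in control and 1.88 (SE 0.107, adjusted p 6.46e-11) in cKO mice, folds of 3.59 and 3.68.

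Gadd45b (ENSMUSG00000015312.10), the third adaptor, did not follow the other two. Control mice had 8.24, 8.34, 7.87, 10.5 and 7.12 CPM on the contralateral and 7.64, 7.10, 7.62, 8.21 and 8.66 CPM on the ipsilateral side, and these ranges overlapped. Their log2 fold change was -0.10 (95% confidence interval -0.37 to 0.17, adjusted p 0.622). The cKO mice had 9.87, 11.6, 11.4, 7.25 and 13.6 CPM on the contralateral and 9.15, 7.34, 7.41, 7.72 and 8.88 CPM on the ipsilateral side. Here 4 of 5 mice were lower on the lesioned side, while H99 was slightly higher, so the ranges overlapped as well. Gadd45b fell by 0.41 on the log2 scale in cKO mice (SE 0.128, adjusted p 0.0194). That call was lost without H64 (-0.35, adjusted p 0.105), H95 (-0.35, adjusted p 0.102) or H100 (-0.34, adjusted p 0.0618), without the filter on low counts (-0.39, adjusted p 0.0569), and with only the libraries compared (-0.39, adjusted p 0.0666). The difference between the responses of the genotypes was -0.31 (-0.69 to 0.073, adjusted p 0.574) and was not called.

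Markers of other cell types varied among the same cKO contralateral libraries. The summed level of 7 fibroblast markers, none of them at 0 in any library, was 1009.9, 2245, 1985, 937 and 1689 CPM in the cKO mice in the same order. Its range was 803 to 1359 CPM in control contralateral, 927 to 1519.6 CPM in control ipsilateral and 850.1 to 1560.2 CPM in cKO ipsilateral libraries. The 8 macrophage markers summed to 94.2, 189, 139, 77.1 and 136 CPM in those cKO contralateral libraries, and to 76.1 to 139, 86.1 to 168 and 111 to 190.0 CPM in the other 3 groups, again with none at 0. The sums of 6 neutrophil markers (78.8, 151, 104, 18.5 and 65.3 CPM) and 5 erythroid markers (562, 833, 580.0, 272 and 621 CPM) varied over the same libraries too, with none at 0. Over the other 3 groups, in the same order of groups, the neutrophil sum was 31.9 to 102, 30.6 to 138 and 46.1 to 129 CPM and the erythroid sum 311 to 711, 319 to 589 and 252 to 616 CPM. H99 was the lowest of the 5 in Gadd45b and in these 4 sums, and in 6 of 10 marker lists in all (cycling cells and lymphocytes as well). It was not the lowest for endothelium, Schwann cells or satellite glia, and it was the highest for sensory neurons. At the other end, Gadd45b was highest in H100 (13.6 CPM), whereas the 4 sums above were all highest in H64 (Gadd45b at 11.6 CPM). Of the fibroblast markers, 1 of 7 was called in the injury comparison of cKO mice (Dpt, lower), against 15.1% of all tested genes called lower there. The part of these cells in the Gadd45b values was not tested.

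**Figure D2:**
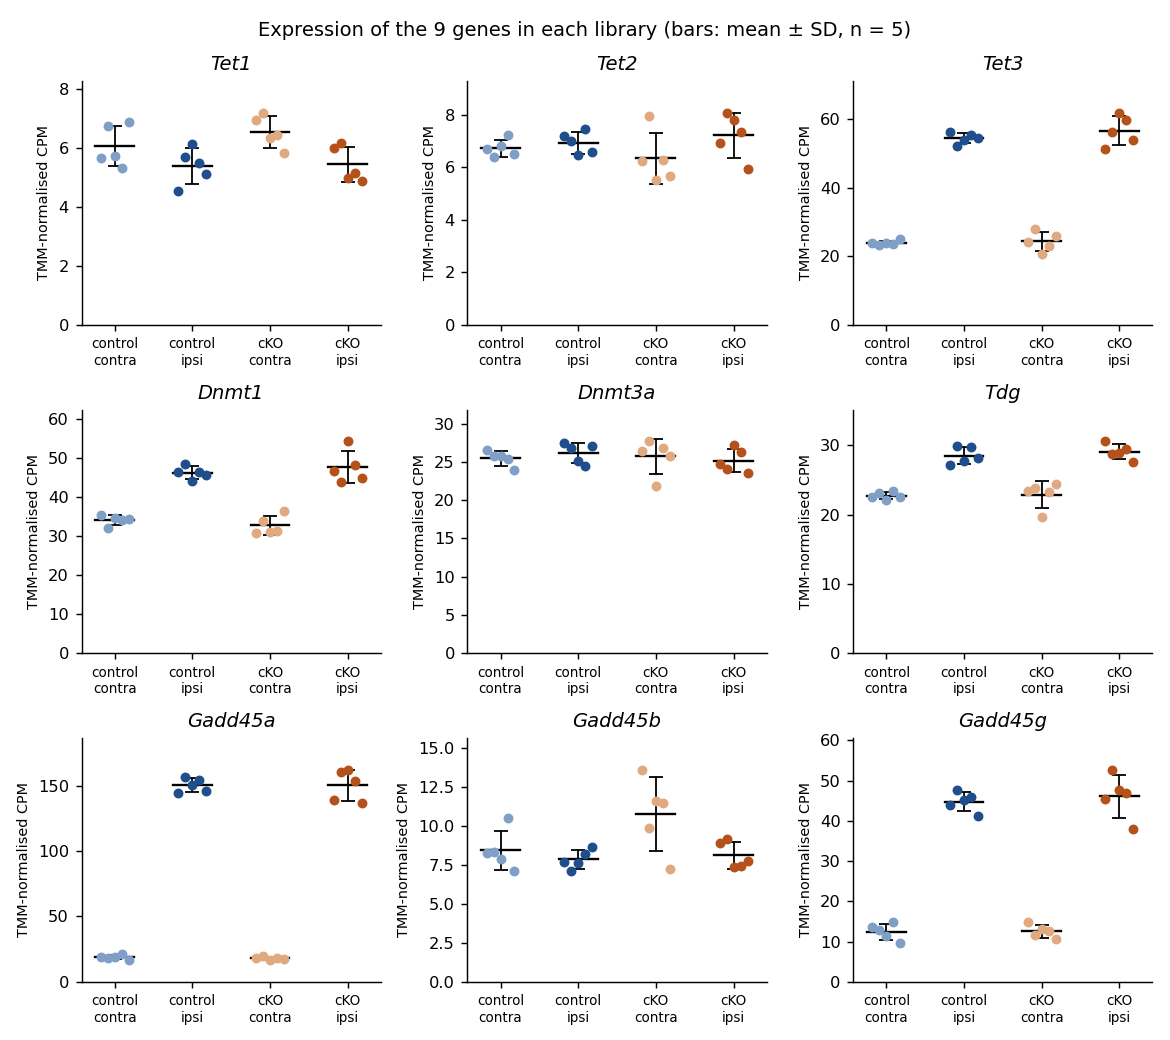
TMM-normalised CPM of each of the 9 genes in each of the 20 libraries, by genotype and side (contra, contralateral; ipsi, ipsilateral). Points are libraries, the bar and whiskers are the mean and SD of 5 mice, and each axis starts at 0. For Tet3, Dnmt1, Tdg, Gadd45a and Gadd45g all ipsilateral points lie above all contralateral points of their genotype.

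Tet3 (ENSMUSG00000034832.16) was the TET dioxygenase that rose. Control mice had 23.8, 23.2, 23.9, 23.5 and 25 CPM on the contralateral and 56.2, 52.2, 54.0, 55.3 and 54.4 CPM on the ipsilateral side. In cKO mice the values were 27.9, 20.7, 22.9, 26.0 and 24.1 CPM and 56.3, 61.8, 59.8, 53.9 and 51.1 CPM. The lowest ipsilateral library, that of H100, was well above the highest contralateral one, that of H61. Its log2 fold change was 1.19 (SE 0.0619, adjusted p 5.52e-12) in control and 1.22 (SE 0.0619, adjusted p 3.10e-12) in cKO mice, folds of 2.28 and 2.33. By fold change it ranked 107 in control and 114 in cKO mice among the genes that averaged 5 CPM or more.

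Tet1 and Tet2, the other dioxygenases, were under 10 CPM in all 20 libraries. Tet1 was at 5.34 to 6.88 CPM in control contralateral and 4.56 to 6.15 CPM in control ipsilateral libraries, with a log2 fold change of -0.17 (95% confidence interval -0.36 to 0.022, adjusted p 0.185). In cKO mice Tet1 was at 7.21, 6.35, 6.44, 5.83 and 6.96 CPM on the contralateral and 6.19, 5.01, 5.16, 4.89 and 6.0 CPM on the ipsilateral side, and all 5 mice were lower on the lesioned side although the ranges overlapped. It fell by 0.27 on the log2 scale (SE 0.0916, adjusted p 0.0303). The call was lost without H64 (-0.25, adjusted p 0.0947), H95 (-0.25, adjusted p 0.0935) or H100 (-0.28, adjusted p 0.0514), and without the filter on low counts (-0.25, adjusted p 0.0583). The responses of the genotypes differed by -0.10 (-0.37 to 0.17, adjusted p 0.820), which was not called.

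Tet2 ranged over 6.39 to 7.22 CPM in control contralateral, 6.45 to 7.44 CPM in control ipsilateral, 5.53 to 7.93 CPM in cKO contralateral and 5.92 to 8.07 CPM in cKO ipsilateral libraries, and these ranges overlapped. The log2 fold change was 0.042 (-0.14 to 0.23, adjusted p 0.781) in control and 0.19 (0.0016 to 0.37, adjusted p 0.120) in cKO mice. With the mouse as a replicate block, which uses the pairing of the 2 sides, the cKO value was 0.19 with an adjusted p of 0.0404, and it was also called without H61 (0.24, adjusted p 0.0269).

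Tdg (ENSMUSG00000034674.19), the glycosylase downstream of the TET enzymes, rose in both genotypes, by less than Gadd45a, Gadd45g and Tet3. Control mice had 22.6, 23.1, 22.0, 23.4 and 22.5 CPM on the contralateral and 27.1, 29.9, 27.7, 29.8 and 28.1 CPM on the ipsilateral side. In cKO mice it was at 23.8, 19.6, 23.3, 24.4 and 23.4 CPM and 28.8, 28.8, 29.4, 27.6 and 30.6 CPM. The sides were separate in each genotype, and H64 lay below the other cKO contralateral libraries. Mouse by mouse the log2 rise was 0.26 to 0.37 in control mice and ranged more widely, from 0.18 (H99) to 0.56 (H64), in cKO mice. The log2 fold change was 0.33 (SE 0.0480, adjusted p 1.89e-05) in control and 0.34 (SE 0.0480, adjusted p 1.06e-05) in cKO mice, folds of 1.26 and 1.27. Of its 5374 exon bases, 367 are shared with Glt8d2 on the opposite strand, whose log2 fold change was -0.14 (adjusted p 0.547) in control mice and which fell by 0.61 in cKO mice.

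Dnmt1 (ENSMUSG00000004099.17), the maintenance methyltransferase, rose in both genotypes. In control mice it was at 35.4, 32.2, 34.7, 34.2 and 34.4 CPM on the contralateral and 46.5, 48.6, 44.1, 46.5 and 45.7 CPM on the ipsilateral side. The cKO mice had 33.8, 31.0, 31.4, 36.5 and 30.9 CPM and 44.0, 54.3, 48.3, 45.0 and 46.7 CPM. H64 had the highest ipsilateral value and one of the lowest contralateral values, and the sides did not overlap. Log2 fold changes were 0.44 (SE 0.0531, adjusted p 1.77e-06) in control and 0.54 (SE 0.0532, adjusted p 8.62e-08) in cKO mice, folds of 1.35 and 1.46. Of 10 markers of cycling cells 0 were called in either genotype, against 29.9% and 31.3% of all tested genes. None was at 0 in a library, and their sum was 27.7 to 47.3 and 28.8 to 60.7 CPM on the contralateral and 27.2 to 62.1 and 31.0 to 41.7 CPM on the ipsilateral side of control and cKO mice. The part of dividing cells in the Dnmt1 values was not tested.

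Dnmt3a, the de novo methyltransferase, averaged 25.5 ± 0.978 and 26.2 ± 1.31 CPM on the 2 sides of control mice and 25.7 ± 2.30 and 25.2 ± 1.54 CPM in cKO mice (SD, n = 5), and it was not called in either genotype. Its log2 fold change was 0.040 (-0.078 to 0.16, adjusted p 0.662) in control and -0.032 (-0.15 to 0.085, adjusted p 0.722) in cKO mice. Dnmt3b, the other de novo enzyme, was at a mean of 0.337 CPM over all libraries and was not called (log2 fold changes 0.20 and 0.021). Smaller stretches are shared with RNAs of the opposite strand by Dnmt3a (133 exon bases, with Dnmt3aos) and Tet2 (43 exon bases, with Gm42567).

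Some markers of other cells also differed between the sides. Of 6 satellite glia markers, none at 0 in a library, 2 were called higher in each genotype (Glul and Kcnj10), against 13.8% and 16.2% of all tested genes called higher. The other 4 (Fabp7, Cdh19, Slc1a3 and Sox10) were not called. Their sum was 709.9 to 782 CPM in control contralateral and 868 to 943 CPM in control ipsilateral libraries, and 684 to 859.6 and 855 to 883 CPM in cKO mice. Of 7 Schwann cell markers none was called, and their sum overlapped between the sides. Of 7 endothelial markers 3 were called higher in control (42.9%) and none in cKO mice. Of the 15 sensory neuron markers 5 were called lower in control (33.3%) and 4 in cKO mice (26.7%), against 16.0% and 15.1% of all tested genes, and Rbfox3 and Isl1 were called in both. Their part in the changes of Dnmt1 and Tdg, which are of similar size, was not tested.

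Levels were compared between genes as CPM per kilobase of merged exons (GENCODE M21). Merged exons take in every annotated transcript of a gene, for example 16642 bases for Dnmt3a and 7377 for Dnmt1. The transcripts in use and the annotation behind the counts are not known. The order of genes and the shares within families therefore depend on these lengths. In control contralateral ganglia the order was Gadd45a at 10.6, Gadd45g at 10.6, Gadd45b at 5.29, Dnmt1 at 4.63, Tdg at 4.23, Dnmt3a at 1.53, Tet3 at 1.43, Tet2 at 0.399 and Tet1 at 0.393 CPM per kilobase. The ranges of neighbours overlapped between Gadd45a and Gadd45g, Gadd45b and Dnmt1, Dnmt3a and Tet3, and Tet2 and Tet1. In control ipsilateral ganglia Gadd45a stood at 85.1 and Gadd45g at 38.1, now apart from each other. Gadd45b, at 4.94, came after Dnmt1 (6.27) and Tdg (5.31), and its range overlapped that of Tdg. Tet3, at 3.26, stood above Dnmt3a, at 1.57, without overlap. The order in cKO ipsilateral ganglia was the same as in control ipsilateral ganglia, from Gadd45a at 85.2 down to Tet1 at 0.353 CPM per kilobase. In cKO contralateral ganglia Gadd45g (10.7) and Gadd45a (10.1), and Tet1 (0.424) and Tet2 (0.376), changed places with overlapping ranges.

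Within families the makeup of the summed level differed between the sides. The summed TET level was 2.22 ± 0.0606 CPM per kilobase contralaterally and 4.02 ± 0.0802 ipsilaterally in control mice, and 2.26 ± 0.229 and 4.17 ± 0.278 in cKO mice (SD, n = 5). Tet3 made up 64.4% of it on the contralateral and 81.1% on the ipsilateral side of control mice. In single libraries that share was 63% to 65.1% on the contralateral and 80.0% to 82.4% on the ipsilateral side, so the sides did not overlap. In cKO mice the share of Tet3 was 64.5% and 81.3%. The summed GADD45 level was 26.5 ± 3.24 and 128.2 ± 4.58 CPM per kilobase on the sides of control mice and 27.5 ± 3.01 and 129.6 ± 10.7 on those of cKO mice. Gadd45a made up 40.2% of that sum on the contralateral and 66.4% on the ipsilateral side in control mice, while Gadd45b made up 19.9% and 3.86%. In cKO mice the shares were 37.0% and 65.8% for Gadd45a, and 24.3% and 3.95% for Gadd45b. Of the sum of Dnmt1 and Dnmt3a, Dnmt1 held 75.1% and 79.9% in control mice.

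**Figure D3:**
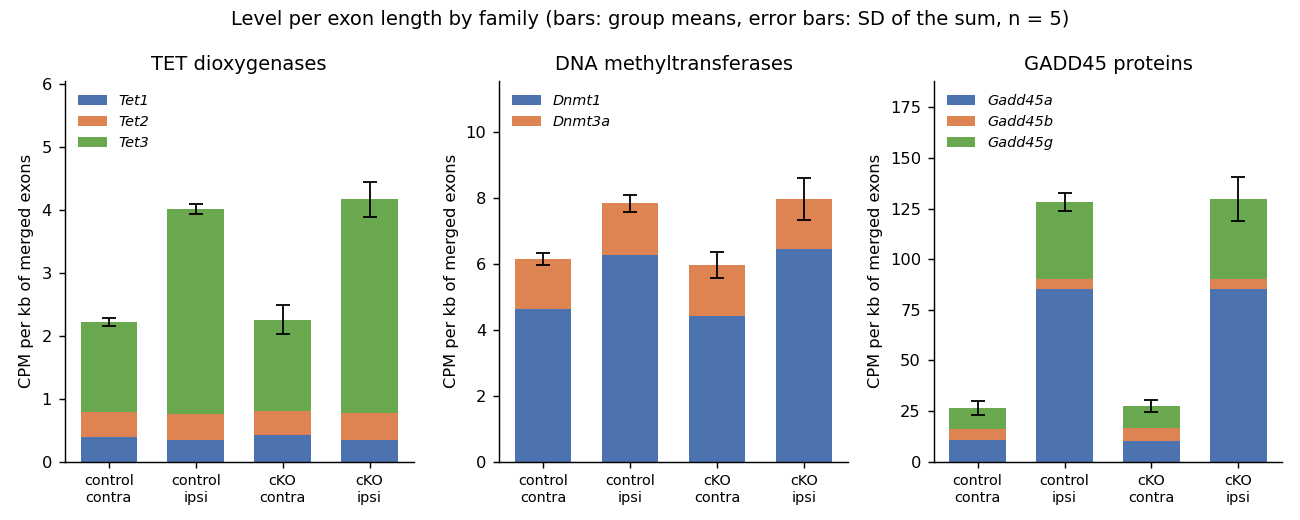
Stacked mean levels, in CPM per kilobase of merged exons, of the TET, GADD45 and DNMT genes in the 4 groups (5 libraries each), with error bars for the SD of the sum. The ipsilateral bars are higher in all 3 families, with Tet3 and Gadd45a making up most of the added height in the TET and GADD45 bars.

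The effect of the cKO genotype on these genes was asked on each side and for the response itself. On the contralateral side 0 of 9 genes were called by edgeR (0.0735% of all tested genes), with DESeq2 also at 0 (5.00% of all genes with an adjusted p), and 1 of 9 had an unadjusted p under 0.05 (17.5% of all tested genes). That gene was Gadd45b, at 10.7 ± 2.36 CPM in cKO against 8.41 ± 1.26 CPM in control mice, a log2 difference of 0.35 (0.083 to 0.62, adjusted p 0.172). Of the 5 cKO libraries 3 lay above all control libraries, and H61 and H99 lay within the control range. Without H99 the difference was 0.47 with an adjusted p of 0.0105, and 1 of 9 members was called (11.1%), about the share of all genes tested in that setting (11.5%). For the other 8 genes the contralateral difference was from -0.086 (Tet2) to 0.11 (Tet1). The interval was -0.10 to 0.15 for Tet3, -0.17 to 0.050 for Dnmt1 and -0.20 to 0.049 for Gadd45a.

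On the ipsilateral side 0 of 9 genes were called by edgeR (0.00700% of all tested genes) or DESeq2, and 0 of 9 had an unadjusted p under 0.05 (2.36%). Differences were from -0.057 (Dnmt3a) to 0.058 (Tet2). That of Gadd45a was 0.0014, with an interval of -0.12 to 0.12, and that of Tet3 was 0.056, with an interval of -0.070 to 0.18. These intervals leave out a change of either gene by 1 on the log2 scale between lesioned ganglia of the genotypes.

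The response to the lesion differed between genotypes in 0 of 9 genes by edgeR (0% of all tested genes) or DESeq2, and 0 of 9 had an unadjusted p under 0.05 (9.80%). The interaction was 0.075 (-0.094 to 0.24) for Gadd45a, 0.030 (-0.15 to 0.21) for Tet3, 0.038 (-0.27 to 0.35) for Gadd45g, 0.10 (-0.053 to 0.26) for Dnmt1 and 0.015 (-0.13 to 0.16) for Tdg. Mouse by mouse, Gadd45a rose by 2.88 to 3.14 (log2) in control and 2.91 to 3.30 in cKO mice. Tet3 rose by 1.12 to 1.24 in control mice and over a wider range, 1.01 to 1.58, in cKO mice. Tet1 was lower on the lesioned side in 3 of 5 control and 5 of 5 cKO mice, and Gadd45b in 4 of 5 mice of each genotype. An exact permutation test (two-sided) of the per-mouse ratios, which with 5 mice in each genotype cannot give a p below 0.00794, gave p from 0.127 (Tet2) to 0.889 (Gadd45g) over the 9 genes, and from 0.75 to 0.889 after adjustment over these 9 tests. With that lowest p, a gene that differed alone could not have come below 0.05 after the adjustment.

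**Figure D4:**
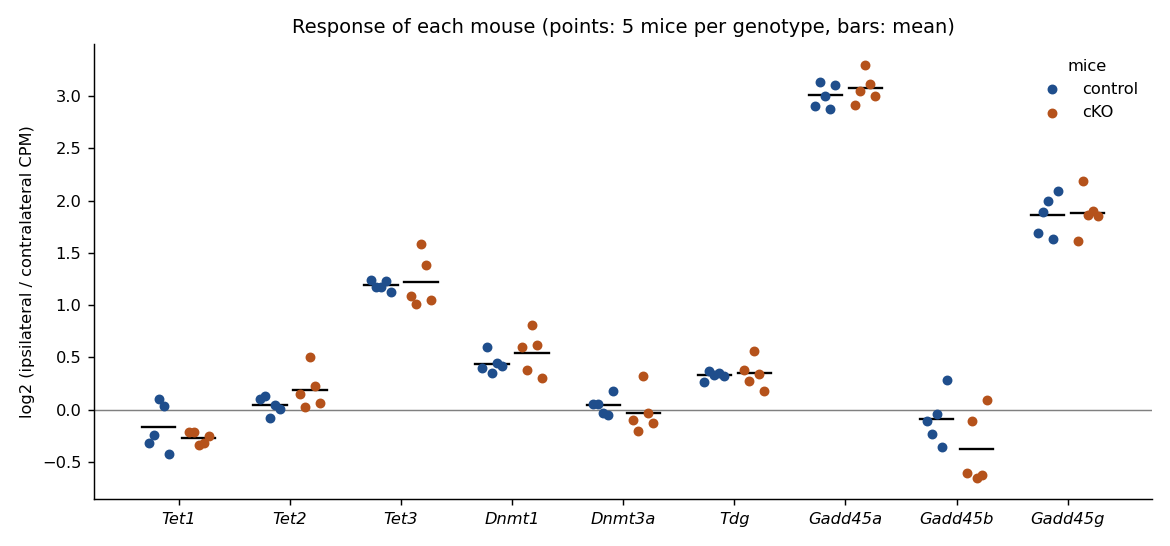
Log2 ratio of ipsilateral to contralateral CPM in each mouse for the 9 genes, control and cKO mice side by side, with the mean of each genotype. Gadd45a lies between 2.88 and 3.30 in all 10 mice, and the points of the genotypes overlap for each gene.

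The genes most like the 3 strongest risers were ranked by the root mean square difference of centred log2 CPM over the 20 libraries. The 11742 candidates had a symbol and averaged 5 CPM or more. Predicted genes, Riken genes (E230016M11Rik among them), genes named by accession and marked pseudogenes were left out. Nearest to Gadd45a were Sox11, a transcription factor of developing and injured neurons (0.0981), Sema6a, a transmembrane semaphorin (0.185), and Plaur, the urokinase receptor (0.206). For Gadd45g they were Stmn4, a stathmin that binds tubulin (0.135), Nfil3, a transcriptional repressor (0.155), and Lmo7 (0.159). For Tet3 they were Pfkfb4, a regulator of glycolysis (0.0901), Rcc1, the exchange factor of the GTPase Ran (0.0955), and Gfra1, a receptor for the neurotrophic factor GDNF (0.0980).

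Other genes of methylation turnover were taken from a list of 64, of which 63 were tested. This list too was chosen with earlier results of these data known, so its shares are descriptions only. In control mice 19 were called higher and 12 lower, which made 49.2%, and in cKO mice 20 higher and 10 lower, which made 47.6%, against 29.9% and 31.3% of all tested genes. The median log2 fold change of the list was 0.042 and 0.036. Of these, 17 were higher and 9 lower in both genotypes, and none was called in opposite directions. Among the genes of the list that averaged 1 CPM or more and were called alike in both genotypes, the highest was Cdkn1a, the cell cycle inhibitor that GADD45 proteins bind, with 70.7 ± 4.75 CPM contralaterally and 181 ± 8.31 CPM ipsilaterally in control mice, a log2 fold change of 1.35. In cKO mice the levels were 68.2 ± 4.21 and 183 ± 19.5 CPM (1.42). Of the 10 GADD45 partners and regulators 4 were called higher and 3 lower in each genotype, beside 13.8% higher and 16.0% lower of all tested genes in control mice and 16.2% and 15.1% in cKO mice. The lowest gene by the same rule was one of them, Map2k6, a kinase upstream of p38, at -0.57 and -0.61.

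Among 10 genes of the S-adenosylmethionine cycle, which supplies the methyl group, 6 were called higher and 1 lower in each genotype, against 13.8% of all tested genes called higher and 16.0% lower in control and 16.2% and 15.1% in cKO mice. The genes called higher were not all the same: Shmt1 was called only in control and Mtr only in cKO mice, both named after their values were seen. Ahcy, which clears the by-product S-adenosylhomocysteine, rose by 0.55 in control mice, with 48.6 ± 1.85 CPM contralaterally and 71.3 ± 2.46 CPM ipsilaterally, and by 0.54 in cKO mice, with 49.3 ± 1.33 and 71.6 ± 4.66 CPM. Shmt2, a mitochondrial enzyme of the folate cycle, rose by 0.46 and 0.49. Of 10 readers of methylated DNA, 4 were called higher in each genotype, and 3 lower in control and 2 lower in cKO mice, against those same shares. Zbtb33, the zinc finger reader Kaiso, rose by 0.48 and 0.53.

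Of 7 maintenance and other writer genes 3 were called higher and 1 lower in each genotype, where 13.8% (control) and 16.2% (cKO) of all tested genes were called higher and 16.0% and 15.1% lower. Zfp57, a zinc finger protein that guards imprinted regions, rose by 0.43 and 0.75 at a mean of 1.57 CPM, while Hells, a chromatin remodeller needed for methylation, fell from 9.36 ± 0.431 to 6.84 ± 0.285 CPM in control (-0.45) and by 0.43 in cKO mice. Uhrf1, the partner that brings DNMT1 to replicating DNA, was not called, at 0.35 (SE 0.410) and -0.11 (SE 0.410). Of 12 TET partners and cofactor genes 1 was called higher in control and 2 in cKO mice, and 2 lower in each, which made 25% and 33.3% and was near the shares of all tested genes. The lower ones included Cxxc4 (-0.41 and -0.32) and Cxxc5 (-0.25 and -0.41), zinc finger proteins known to bind TET2. Of 11 base excision repair genes 3 were called in control (27.3%) and 2 in cKO mice (18.2%), below the shares of all tested genes (29.9% and 31.3%), and the gene called higher was Polb in control and Parp1 in cKO mice, both named after their values were seen. Neil2, a DNA glycosylase, fell from 4.45 ± 0.315 to 3.09 ± 0.429 CPM in control (-0.52) and by 0.43 in cKO mice. None of the 3 tested deaminases was called in either genotype.

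Between genotypes 0 of the 63 genes were called by edgeR on the contralateral side, and 14 had an unadjusted p under 0.05 (22.2%, against 17.5% of all tested genes). DESeq2 called 1 of 60 with an adjusted p, against 5.00% of all genes (1041), and that was Uhrf2 (log2 difference -0.18, adjusted p 0.0492), named after its value was seen. On the ipsilateral side 0 were called by either tool (0.00700% of all tested genes by edgeR) and 0 had an unadjusted p under 0.05 (2.36% of all tested genes). For the interaction 0 were called by either tool and 6 had an unadjusted p under 0.05 (9.52%, against 9.80% of all tested genes). Without H99, 10 of the 63 were called on the contralateral side (15.9%, against 11.5% of all genes tested in that setting), 3 higher and 7 lower in cKO mice.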

How the data were processed

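RNA was measured by stranded mRNA sequencing (paired 150 bp reads, per the labels) in 20 libraries. The authors deposited whole-number counts per gene, not normalized. The submitters' processing notes name HISAT2 and Picard and the builds mm10 and mm39, without saying which made the table; the counting program, annotation release and strand setting are not given in the sources used here. The deposited FPKM table was not used here. Library names tied each column to a mouse and side. Symbols came from GENCODE M21 by identifier without version (51487 of 78258 identifiers, 98.1% of counts).

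Differential expression was computed with edgeR 4.0.16 in R 4.3.3 (filterByExpr, minimum count 10 and total 15; TMM scaling; robust quasi-likelihood test), in 1 fit of 4 group means over 20 libraries. P-values were Benjamini-Hochberg adjusted over 28564 genes. The pipeline was tested on simulated data. Contralateral and ipsilateral libraries with the same number come from 1 mouse; their deviations from the group means correlated with a median of 0.308 over 10 mice (-0.160 to 0.668; 8 above 0.1). Alternatives were the mouse as a replicate block, DESeq2 1.42.0, limma-voom (limma 3.58.1), omitting the filter or requiring a mean CPM of at least 1, RLE size factors, only the libraries compared, and leaving out each mouse. Replicates are separate mice.

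The members and lists were chosen with earlier results of these data known. Text names all 9 members; of the pathway list, the 5 highest and 5 lowest mean injury fold changes among genes called alike in both genotypes with a mean of at least 1 CPM, any gene called between genotypes, Dnmt3b and Uhrf1; and the 3 genes most like each member that changed by at least 1 (log2) in both genotypes. Promoters are RefSeq windows (GRCm38.p6), matched by symbol for 9 of 9 members. The octamer was added after the sequences were read.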

Additional observations from a re-analysis of the deposited data

Results flagged for a closer look

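Tdg in the cKO contralateral group was picked out because 1 library stood apart from the other 4: H64 had 19.6 CPM, against 23.3 to 24.4 CPM in the others, and its gap to the nearest was 0.778 of the whole range of the group, above the critical value of 0.71 for 5 samples. This was 1 of 36 groups of 5 examined, where chance alone picks about 1.8. The rise of Tdg in cKO mice was called in 17 of 17 alternatives, those without H64 included, with log2 fold changes of 0.29 to 0.39.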

How the results depend on the processing

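The rises of Gadd45a, Gadd45g, Tet3, Dnmt1 and Tdg were called in 17 of 17 alternatives in each genotype, with log2 fold changes of 2.98 to 3.12, 1.80 to 1.95, 1.13 to 1.27, 0.41 to 0.61 and 0.29 to 0.39 over both genotypes. With the mouse as a replicate block, 5 members were called in control and 8 in cKO mice, where Tet2 was added, and 0 for the interaction; the block changed no other member call. Leaving out 1 mouse gave 5 members called in control and 5 to 8 in cKO mice, 0 to 1 between genotypes contralaterally, 0 ipsilaterally and 0 for the interaction. The genotype comparison on the contralateral side was the least stable. Its count over all genes, 21, became 1041 with DESeq2 (667 higher, 374 lower, against 7 and 14), 50 without the filter, 45 where genes averaged 1 CPM or more, and 2 with only the libraries compared, and ranged from 4 (without H95) to 3326 (without H99) when 1 mouse was left out. It was 174 without H61, and 5 to 12 without H63, H64, H65, H96, H97 or H100. Pathway genes called there went from 0 to 1 with DESeq2 and ranged from 0 to 10 (10 without H99). The interaction over all genes went from 0 to 11 with DESeq2 and ranged from 0 to 43 (43 without H99). The causes were not tested. The members had at least 373 counts per library, and counting error was most of the variance for Tdg, Tet2 and Tet3 in control contralateral libraries.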

Other observations

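Dnmt3l, the catalytically inactive DNMT3 relative, lay below the level set for named genes, with a mean of 0.0912 CPM, and is given here after its values were seen. It was called higher on the lesioned side in both genotypes, with log2 fold changes of 1.47 in control and 1.65 in cKO mice.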
